A study of Rattus norvegicus with 6 samples.

Results

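The interferon response genes described here are 9 genes of the rat ileum that were chosen by name: the signalling factors Stat2, Irf1, Irf7 and Irf9 and the interferon-stimulated genes Isg15, Samd9, Mx1, Ifit3 and Rsad2. The 9 genes were chosen with earlier results of these data known, and all 9 symbols were found among the 28282 in the deposited tables. Unique molecular identifiers (UMIs, counts of captured RNA molecules) were summed per library over nuclei that passed quality control, across classes of nuclei and between CON and SAP rats. Single-nucleus RNA sequencing was run on the ileum of 6 wild-type male Sprague–Dawley rats, with 1 library per rat, 3 in each group. All were 6 weeks old, were acclimatized for 7 days and gave ileum 24 h after the operation. SAP rats had severe acute pancreatitis, caused by 3% sodium taurocholate run backwards into the pancreatic duct at 0.1 mL per 100 g body weight and 0.1 mL per min with a 5 min clamp, and CON rats had the abdomen opened without an infusion. A rat with taurocholate pancreatitis had surgery, anesthesia and a duct injury together, and CON rats shared the surgery and the anesthesia without the duct injury. After the operation the rats could drink water but got no food.

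Interferons are secreted proteins that bind receptors on neighbouring cells and switch on antiviral genes through kinases that include JAK1. Type I and type III interferons act through a complex that includes STAT2 and IRF9 and binds the interferon-stimulated response element (ISRE), whereas interferon gamma acts largely through gamma-activated sites (GAS). In the gut epithelium, which is renewed from crypt to villus tip, type III interferon is known for antiviral defence, and some interferon-stimulated genes are also expressed without infection.

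Promoter sequences were read to show which of the 9 genes carry these elements close to their start. The ISRE was searched as a pair of GAAA half-sites with any 2 bases between them, which reads as TTTC half-sites on the other strand, and GAS as TTC and GAA with any 3 bases between them, which is the same on both strands, from 250 bases before to 50 after each RefSeq start in build GRCr8. Of 27457 rat promoters, 3.77% held the ISRE and 8.68% held GAS. RefSeq promoters were at hand for 8 of the 9 genes and for all but Isg15, and 4 of the 8 held the ISRE, namely Irf7, Samd9, Ifit3 and Rsad2. Of 50 other interferon-stimulated genes with a promoter, 48% held the ISRE. In Irf7 the match began 69 bases before the start, in Ifit3 44 and in Rsad2 147, and Samd9 held 3 matches that began 36, 23 and 17 bases before it, the last pair overlapping. GAS was matched in Irf1, Irf9 and Samd9, beginning 142, 99 and 29 bases before the start, and the match in Samd9 overlapped its ISRE. Stat2 and Mx1 held neither set of letters in this window. The 160 bases before the start are shown 5′ to 3′ on the gene's strand for the ISRE holders, for Irf1 and for Mx1, in which no match was found. Capitals mark the ISRE in the first 4 sequences and GAS in Irf1. The windows are chr1:205800024-205800183 on the minus strand for Irf7, chr4:32138959-32139118 on the minus strand for Samd9, chr1:241527166-241527325 on the plus strand for Ifit3, chr6:48788121-48788280 on the minus strand for Rsad2, chr10:38417775-38417934 on the plus strand for Irf1 and chr11:50294607-50294766 on the minus strand for Mx1. A match is a description of letters and not a binding site.
Irf7: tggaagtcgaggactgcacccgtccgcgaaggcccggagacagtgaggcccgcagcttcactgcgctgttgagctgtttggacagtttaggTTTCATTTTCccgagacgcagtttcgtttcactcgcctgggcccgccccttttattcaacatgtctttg
Samd9: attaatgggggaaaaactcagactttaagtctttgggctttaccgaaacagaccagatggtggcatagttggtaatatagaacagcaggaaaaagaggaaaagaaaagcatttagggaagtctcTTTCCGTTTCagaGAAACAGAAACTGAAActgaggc
Ifit3: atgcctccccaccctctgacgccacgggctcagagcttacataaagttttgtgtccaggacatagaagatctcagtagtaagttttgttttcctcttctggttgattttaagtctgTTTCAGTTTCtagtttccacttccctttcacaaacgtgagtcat
Rsad2: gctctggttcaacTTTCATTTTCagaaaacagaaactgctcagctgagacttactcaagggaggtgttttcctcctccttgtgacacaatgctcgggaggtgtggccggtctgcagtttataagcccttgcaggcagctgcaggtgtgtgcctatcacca
Irf1: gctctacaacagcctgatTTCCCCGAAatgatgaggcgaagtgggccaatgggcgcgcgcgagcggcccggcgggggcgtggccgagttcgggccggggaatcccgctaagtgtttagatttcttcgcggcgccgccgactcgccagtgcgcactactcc
Mx1: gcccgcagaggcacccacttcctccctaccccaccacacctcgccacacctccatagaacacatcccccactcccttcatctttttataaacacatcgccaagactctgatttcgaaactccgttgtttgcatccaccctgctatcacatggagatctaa

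Of 90461 deposited barcodes, 40970 passed as nuclei, 3189 to 9246 per library, with 5549260 to 28771508 UMIs per library and median depths of 1516 to 1889.5 UMIs per nucleus. CON replicate 2 and SAP replicate 1 stood apart, because their tables list barcodes below 1000 UMIs and because 26.2% and 12.2% of their barcodes passed, against 76.4% to 79.9% in the other libraries. Mitochondrial UMIs were higher in SAP replicates 1 and 2, with medians of 1.84% and 1.29% per nucleus, than in the other 4 libraries, at 0.125% to 0.700%. Nuclei fell into 24 clusters, which gave 14 named classes with at least 10 nuclei in each library and 4 such clusters without a name. The 9 genes and the other interferon pathway genes were kept out of the genes that formed the clusters, but the clusters come from the same nuclei. The villus tip-like class was named by 11 tip markers, whose summed level was 3189 to 6585 UMIs per 1000000 UMIs of the library's nuclei in that class (CPM) in it, 1053 to 1877 CPM in the mid villus-like class and 387 to 1116 CPM in the stem/TA-like class (TA, transit-amplifying). The T-like class had 1 of its own markers, Cd3d, among its 10 leading genes and also 1 of the mast cell list, Mcpt9, beside a further mast cell protease gene, Mcpt10. Samd9 and Isg15 were themselves among the 10 leading genes of the villus tip-like class.

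The interferon-stimulated genes Isg15, Samd9 and Rsad2 were concentrated at the villus tip. Villus tip-like nuclei were 6.38% of all nuclei and gave 6.30% of all UMIs, but held 57.8% of the UMIs of Isg15, 59.8% of those of Samd9 and 57.1% of those of Rsad2. Irf7 had 32.1% and Ifit3 28.5% of its UMIs there. These shares pool both groups, and between CON and SAP they went from 43.9% to 62.1% for Isg15, from 43.5% to 69.7% for Samd9, from 39.1% to 65.3% for Rsad2, from 17.9% to 40.1% for Irf7 and from 30.0% to 28.1% for Ifit3. The tip's share of all UMIs moved too, at 2.34%, 3.35% and 5.71% in CON and 11.3%, 14.6% and 6.42% in SAP libraries. A higher share in SAP is therefore no measure of stronger concentration at the tip. Pooled shares also weigh each library by its UMIs of the gene. Tip levels of Isg15, Samd9 and Rsad2 were highest in SAP replicate 3. Pooled over both groups, the tip shares of Irf1, Stat2, Irf9 and Mx1 were 10.5%, 8.71%, 8.07% and 6.22%. Mx1 had 16.4% of its UMIs in T-like nuclei, which gave 9.75% of all UMIs, and 5.93% in mid villus-like nuclei, which gave 15.2%. Ifit3 was also found in neutrophil-like nuclei, which were 0.320% of nuclei and held 31.1% of its UMIs.

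**Figure D1:**
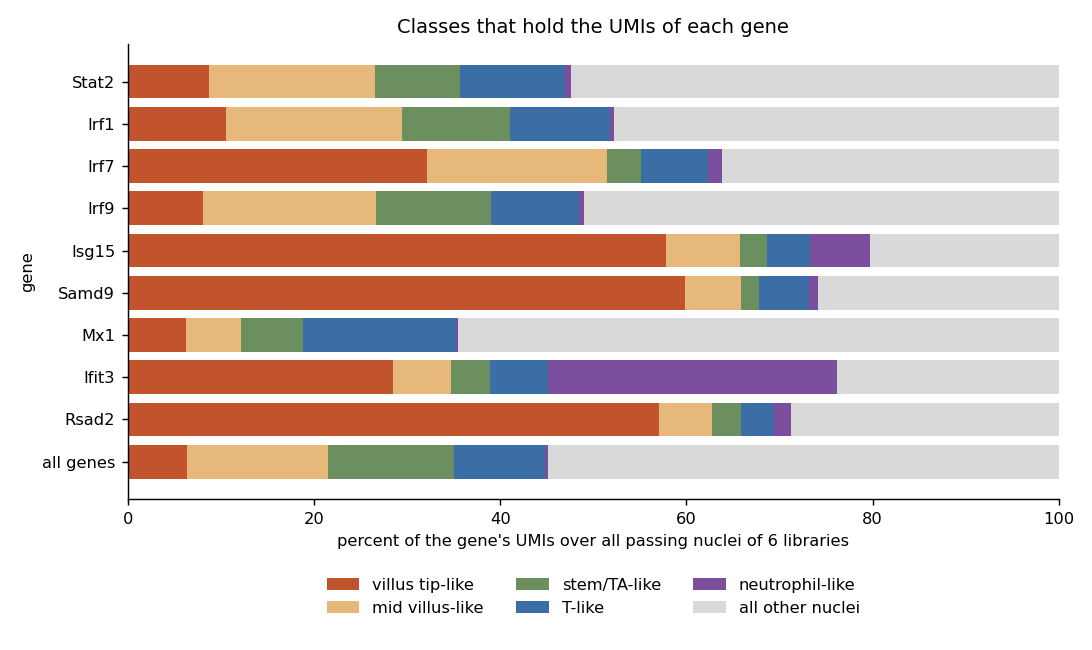
Share of each gene's UMIs, in percent along the horizontal axis, that came from villus tip-like, mid villus-like, stem/TA-like, T-like, neutrophil-like and all other nuclei, summed over 6 libraries, with the UMIs of all genes in the bottom bar. Villus tip-like nuclei held 57.1% to 59.8% of the UMIs of Isg15, Samd9 and Rsad2 and 6.30% of all UMIs.

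Irf1, which encodes a transcription factor that both types of interferon induce, was highest at the villus tip among the 14 named classes that had at least 10 nuclei in each library. Neutrophil-like nuclei fell short of that number and are left out of every order of classes given here. Irf1 was at 205, 312 and 241 CPM in villus tip-like nuclei of CON replicates 1 to 3 and at 138, 183 and 277 CPM in those of SAP. Its mean over the 6 rats was 226 ± 63.4 CPM (SD) at the tip, 163 ± 31.0 CPM in mid villus-like nuclei and 107 ± 36.7 CPM in stem/TA-like nuclei. The tip was above each of the 13 other classes in 6 of 6 rats. In neutrophil-like nuclei, with 54 UMIs of Irf1 in all, it was at 295, 381 and 88.7 CPM in CON and at 141, 207 and 137 CPM in SAP, above the tip of the same rat in 4 of 6 rats.

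Irf7, the factor that amplifies type I interferon production, was at 14.8, 5.24 and 29.3 CPM at the tip of CON rats and at 30.2, 38.4 and 59.3 CPM at that of SAP rats. The lowest SAP library lay just above the highest CON library. Its mean was 29.6 ± 18.8 CPM at the tip, 8.38 ± 3.36 CPM in mid villus-like and 1.93 ± 1.26 CPM in stem/TA-like nuclei, the lowest of the 14 classes. The tip exceeded 7 of the 13 other classes in 6 of 6 rats. Neutrophil-like nuclei, which are outside that order, had 11 UMIs of Irf7. These were 1.57% of its UMIs, from a class that gave 0.343% of all UMIs.

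Stat2 and Irf9, which encode subunits of the ISRE-binding complex, were detected in all 14 classes. Stat2 ranged from 15.5 ± 14.2 CPM in Paneth-like to 51.4 ± 24.1 CPM in B-like nuclei, with 40.1 ± 15.3 CPM at the tip. Irf9 ranged from 13.9 ± 8.30 CPM in B-like to 34.0 ± 12.0 CPM in tuft-like nuclei, with 28.7 ± 9.55 CPM at the tip. The tip was above 1 other class for Stat2 and above 2 for Irf9 in 6 of 6 rats.

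Isg15 encodes a ubiquitin-like protein that is joined to other proteins after interferon. It was at 66.8, 60.2 and 84.3 CPM at the tip of CON rats and at 130, 38.4 and 463 CPM at that of SAP rats. SAP replicate 3 was far above the other libraries and SAP replicate 2 was the lowest of all 6. In stem/TA-like nuclei Isg15 was at 2.07, 1.03 and 3.20 CPM in CON and at 3.56, 6.19 and 8.92 CPM in SAP, so every tip value lay above every stem/TA value. The tip exceeded the 13 other classes of that order in 6 of 6 rats, and the next class was endothelial-like at 14.3 ± 17.8 CPM. In neutrophil-like nuclei Isg15 was at 541, 0 and 17.7 CPM in CON and at 87.9, 0 and 486 CPM in SAP, so CON replicate 1 and SAP replicate 3 were higher there than at the tip.

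Samd9, which encodes a restriction factor of poxviruses, was at 80.1, 94.3 and 268 CPM at the tip of CON rats and at 280, 101 and 505 CPM at that of SAP rats. The groups overlapped, and CON replicate 3 lay above SAP replicate 2. Its mean of 221 ± 165 CPM at the tip compared with 25.2 ± 14.3 CPM in fibroblast-like nuclei, the next class, and 3.49 ± 2.08 CPM in stem/TA-like nuclei. The tip exceeded the 13 other classes of that order in 6 of 6 rats. Neutrophil-like nuclei, which are outside that order, had 22 UMIs of Samd9. These were 0.922% of its UMIs, from a class that gave 0.343% of all UMIs.

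Rsad2, which encodes viperin, an enzyme that makes a chain-ending nucleotide against viral RNA synthesis, was at 38.6, 2.62 and 32.0 CPM at the tip of CON rats and at 50.9, 9.27 and 140 CPM at that of SAP rats. Levels were low in CON replicate 2 and SAP replicate 2. The tip exceeded 10 of the 13 other classes of that order in 6 of 6 rats, and the next class was Paneth-like at 4.48 ± 5.79 CPM. Rsad2 had 9 UMIs in neutrophil-like nuclei, at 98.3, 0 and 0 CPM in CON and at 0, 0 and 40.0 CPM in SAP.

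Ifit3, which encodes a partner of the RNA-binding IFIT proteins, had 193 UMIs in all, 55 of them at the tip. Its tip levels were 0, 13.1 and 6.21 CPM in CON and 6.36, 3.53 and 24.9 CPM in SAP. No class was exceeded by the tip in all 6 rats. In neutrophil-like nuclei Ifit3 had 0, 0 and 1 UMIs in CON and 11, 0 and 48 UMIs in SAP. Isg15 in the same nuclei had 11, 0 and 1 UMIs in CON and 5, 0 and 85 UMIs in SAP. There were 5 to 47 such nuclei in a library, and the class was not tested because SAP replicate 2 had fewer than 10.

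Mx1, a dynamin-like GTPase that blocks influenza viruses, was not highest at the tip. Its highest means were in macrophage/dendritic-like nuclei, at 18.2 ± 16.7 CPM, and in B-like nuclei, at 17.3 ± 11.1 CPM, against 6.02 ± 4.80 CPM at the tip. Mx1 and Mx2, and the genes of the Ifit family, are similar in sequence, and how reads shared by such copies were counted is not given in the sources used here, so the levels of Mx1 and Ifit3 are less certain than those of the others.

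In the order of the 14 class means, neighbours were compared for each gene by an exact 2-sided paired permutation test over the 6 rats. Of 117 comparisons, none passed after Benjamini-Hochberg adjustment, with 0.731 as the lowest adjusted p, and the smallest p that 6 rats can give is 0.03125. Before adjustment, 5 comparisons reached this smallest value, namely the tip against the next class for Irf1, Isg15, Samd9 and Rsad2, and mid villus-like nuclei against NAC-like nuclei, a class named by markers of enteric neurons and glia, for Mx1. It was not reached between the tip and the next class for Irf7 and Ifit3, with exact p = 0.125 and 0.0625, nor at the top of the order for Stat2, Irf9 and Mx1.

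**Figure D2:**
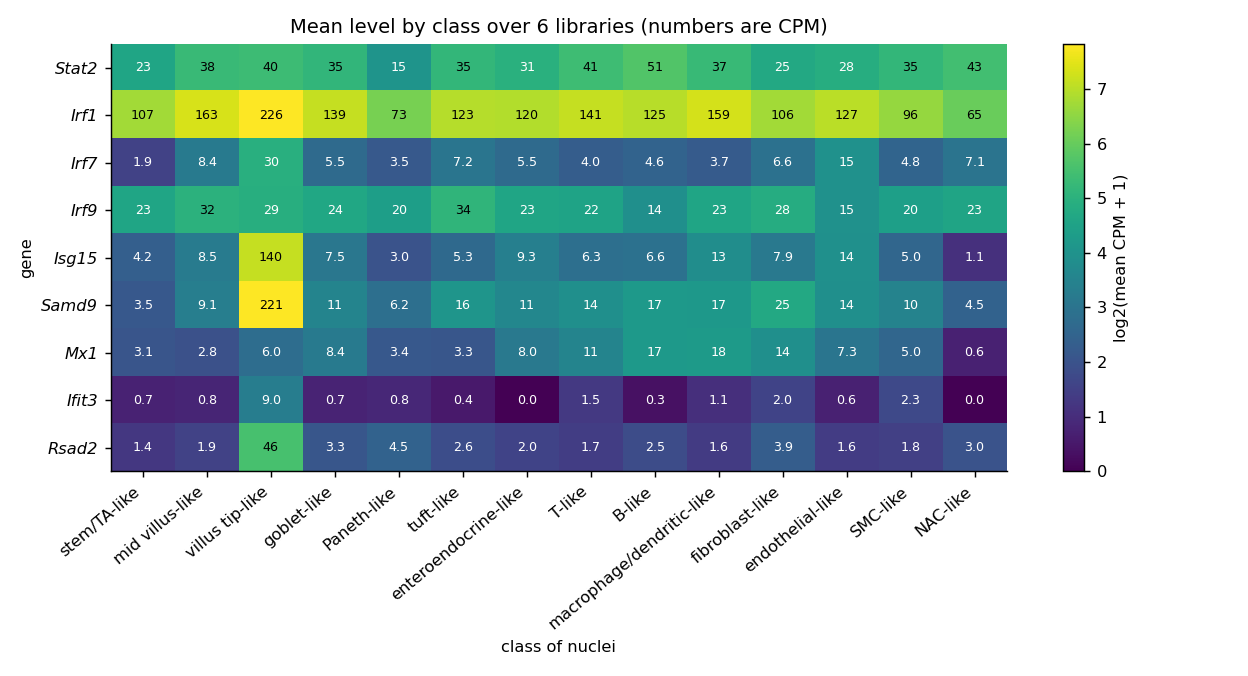
Mean level of each gene (rows) in each of 14 named classes (columns) over 6 libraries, with color giving log2(mean CPM + 1) and numbers giving CPM, to be read along a row since gene lengths differ. Isg15, Samd9 and Rsad2 had means of 140, 221 and 45.6 CPM in villus tip-like nuclei, and Mx1 was highest in macrophage/dendritic-like nuclei.

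Within enterocyte-like nuclei, the mean levels of Isg15, Samd9, Rsad2 and Irf7 were higher where most tip marker UMIs were counted than where none were. After each nucleus was thinned to 1200 UMIs, villus tip-like and mid villus-like nuclei were pooled and binned by their UMIs of the 11 tip markers, with at least 39 nuclei per library in a bin. Mean Isg15 was 6.82 CPM in nuclei with no tip marker UMI, 18.2 CPM at 2 UMIs, 79.4 CPM at 5 to 7 and 223 CPM at 8 to 31. Samd9 was at 10.8, 25.8, 130 and 345 CPM in these bins and Rsad2 at 2.52, 4.60, 29.8 and 71.7 CPM. Irf7 was at 3.80, 13.0, 18.2 and 30.9 CPM, but at 3 to 4 UMIs its mean of 11.2 CPM lay below that at 2. In the highest bin Irf7 was at 0 CPM in CON replicates 1 and 2, with 40 and 63 nuclei. Rsad2 was at 0 CPM in every bin of CON replicate 2. Irf1 was at 158 CPM in the lowest and 255 CPM in the highest bin, whereas Stat2 was at 31.9 and 33.9 CPM and Irf9 at 33.7 and 27.3 CPM. The bins share their libraries and depth, so this order is a description without a test.

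**Figure D3:**
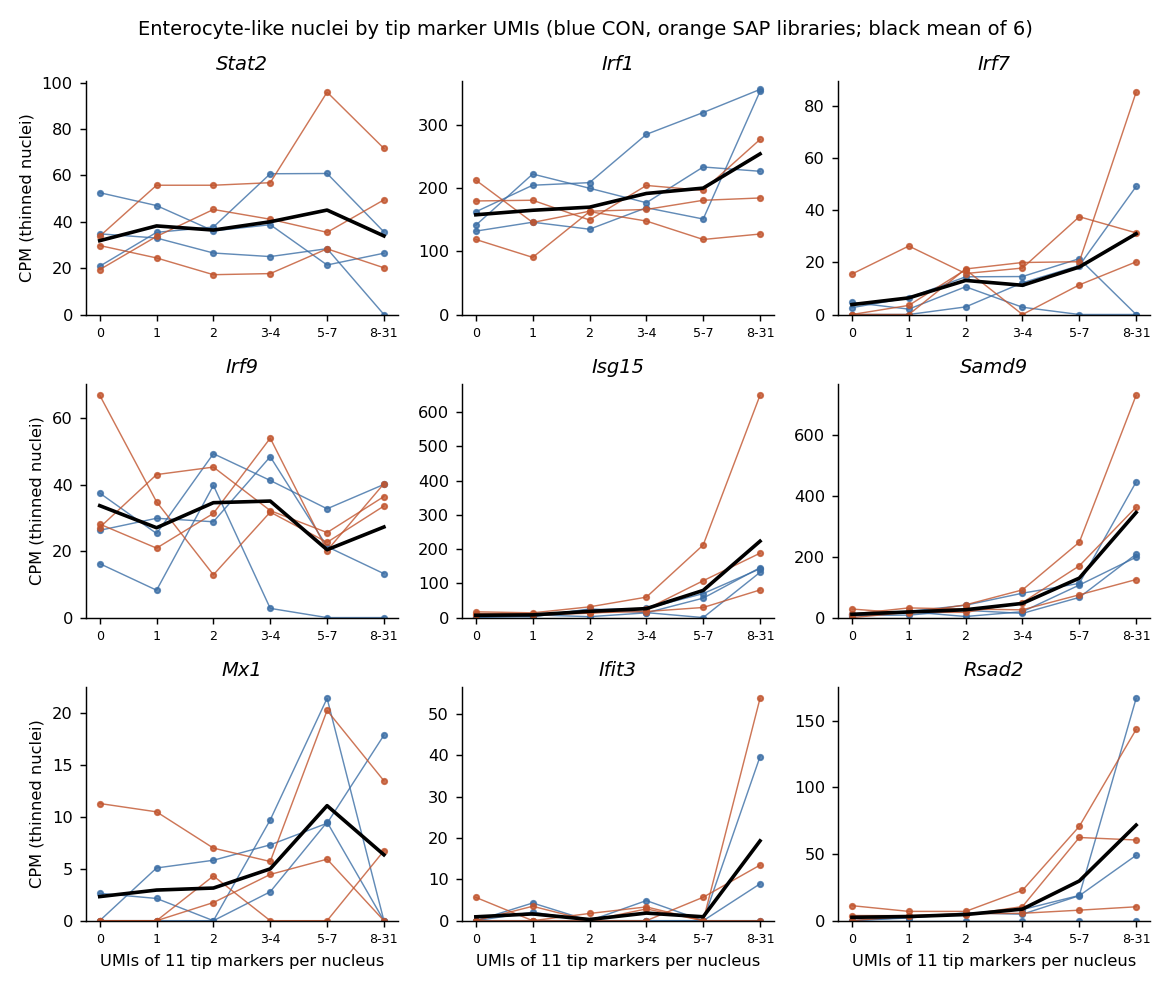
Level of each gene in CPM (vertical axis) in enterocyte-like nuclei thinned to 1200 UMIs and binned by UMIs of 11 villus tip markers per nucleus (horizontal axis), with a blue line per CON library, an orange line per SAP library and the mean of 6 in black. Mean Isg15 was 6.82 CPM in the lowest bin and 223 CPM in the highest, while Stat2 was at 31.9 and 33.9 CPM.

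The share of nuclei with at least 1 UMI followed the same order. At 1200 UMIs per nucleus, Isg15 was detected in 10.1% of villus tip-like nuclei (95% exact Clopper-Pearson interval 8.94% to 11.3%), in 1.02% of mid villus-like nuclei and in 0.386% of stem/TA-like nuclei. Samd9 was detected in 18.0% (16.5% to 19.5%), 1.22% and 0.315%. Rsad2 was detected in 3.44% (2.78% to 4.22%), 0.274% and 0.129%, and Irf7 in 3.41% (2.74% to 4.17%), 1.02% and 0.258%. Irf1 was detected in 20.6%, 17.4% and 11.8% of the 3 classes. Without thinning, 13.8% of tip nuclei had an Isg15 UMI and 25.5% a Samd9 UMI, at median depths of 1876 UMIs at the tip and 1692 in stem/TA-like nuclei. Intervals pool the nuclei of all libraries and cover counting error only, so they leave out the spread between rats. Among single libraries, the thinned tip share of Isg15 ran from 4.41% (SAP replicate 2) to 24.6% (SAP replicate 3). For Samd9 the same libraries set the limits, 9.64% and 32.2%. Free RNA can give UMIs in nuclei that do not express a gene. The stem/TA-like shares of Isg15, Samd9, Rsad2 and Irf7 are therefore no evidence of expression there.

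Tip and crypt were then compared within rats by edgeR's quasi-likelihood test with the rat as a block, over 12059 genes. A call needed both a Benjamini-Hochberg adjusted p below 0.05 and a log2 fold change of 0.5 or more in size. With the rat as a block, p-values rest on how the difference between the classes varied from rat to rat. Between SAP and CON they rest on the spread between rats. All 9 genes were tested and all 9 were called higher at the tip than in stem/TA-like nuclei, where 28.7% of all genes were called higher and 26.7% lower. Since the 9 genes were chosen with earlier results of these data known, this count and those below are no test of the set. The log2 fold change was 6.36 ± 0.40 (SE) for Samd9, 5.62 ± 0.30 for Isg15, 5.55 ± 0.49 for Rsad2, 4.27 ± 0.42 for Irf7 and 4.13 ± 0.53 for Ifit3. It was 1.65 ± 0.16 for Irf1, 1.51 ± 0.40 for Mx1, 1.42 ± 0.25 for Stat2 and 0.85 ± 0.23 for Irf9. Adjusted p of edgeR's test was between 3.2e-08 for Isg15 and 0.00656 for Irf9. Samd9, Isg15, Rsad2, Irf7, Ifit3 and Mx1 had only 45, 46, 16, 26, 8 and 45 UMIs in stem/TA-like nuclei, and genes this low in the crypt entered the test through the tip.

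With library totals in place of the trimmed mean of M-values (TMM) as the scaling, the median log2 fold change of all genes moved from -0.03 to -0.60, and 15.7% of genes were called higher and 50.3% lower. Irf9 at 0.28 and Mx1 at 0.92 were then not called, whereas the other 7 genes were, with Samd9 at 5.79 and Isg15 at 5.00. Without SAP replicate 3, 7 of the 9 genes were called, and Mx1 and Ifit3 were too low to be tested. The share of all genes called without that library was not counted.

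Against the mid villus, a comparison added after the data were seen, 7 of the 9 genes were called higher at the tip, where 13.4% of all genes were called higher and 8.82% lower. The log2 fold change was 4.48 ± 0.38 for Samd9, 4.46 ± 0.43 for Rsad2, 3.93 ± 0.34 for Isg15, 3.30 ± 0.52 for Ifit3, 2.01 ± 0.29 for Irf7, 1.37 ± 0.35 for Mx1 and 0.62 ± 0.12 for Irf1. Stat2 at 0.31 ± 0.16 and Irf9 at 0.11 ± 0.16 were not called. With library totals the median of all genes moved from 0.01 to -0.18, the shares called higher and lower were 9.09% and 17.4%, Irf1 at 0.44 was not called and Irf9 was at -0.12. Without SAP replicate 3, 5 genes were called, Mx1 and Ifit3 were too low to be tested, and Irf9 was at -0.01. In that fit, too, the share of all genes called was not counted. Mx1, Ifit3 and Rsad2 had only 40, 12 and 29 UMIs in mid villus-like nuclei, and genes this low there entered the test through the tip.

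**Figure D4:**
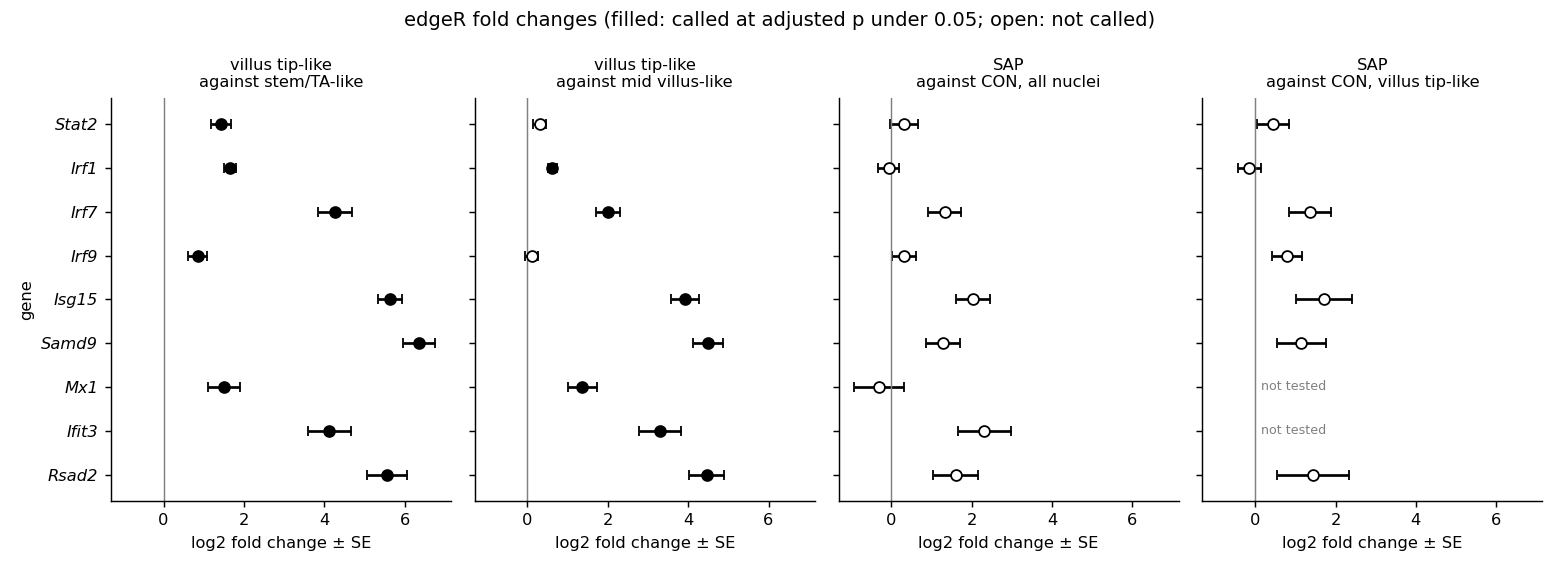
Log2 fold change (horizontal axis, bars are SE of edgeR's quasi-likelihood fit) of each gene for 4 comparisons, with filled points for called genes and open points for genes not called. The tip comparisons reach 6.36 for Samd9, and no gene is called between SAP and CON over all nuclei or at the tip.

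In both immune classes that were compared with the crypt, Mx1 and Samd9 were called higher. Each had only 45 UMIs in stem/TA-like nuclei and Irf7 had 26, and genes this low there entered these tests through the immune class. In macrophage/dendritic-like against stem/TA-like nuclei, 5 of the 9 genes were tested and 4 were called higher, where 18.7% of all genes were called higher and 15.5% lower. The log2 fold change was 2.64 ± 0.47 for Mx1, 2.52 ± 0.48 for Samd9, 0.81 ± 0.26 for Stat2 and 0.50 ± 0.15 for Irf1, and Irf9 was at 0.06 ± 0.28. Irf7, Isg15, Ifit3 and Rsad2 were too low in both classes to be tested, with 8, 11, 3 and 6 UMIs in macrophage/dendritic-like nuclei. Without SAP replicate 3, Stat2 at 0.64 and Irf1 at 0.31 were not called. In T-like against stem/TA-like nuclei, 7 were tested and 4 were called higher, where 21.7% of all genes were called higher and 14.3% lower: Samd9 at 2.06 ± 0.29, Mx1 at 1.72 ± 0.30, Irf7 at 1.06 ± 0.44 and Stat2 at 0.79 ± 0.15. Isg15 at 0.62 ± 0.33, Irf1 at 0.40 ± 0.12 and Irf9 at -0.08 ± 0.16 were not called, and Ifit3 and Rsad2 were not tested. Irf7 was not called without CON replicate 1 (0.97) and without marked doublets (1.08), it was too low to be tested without SAP replicate 2 or SAP replicate 3, and Irf1 was called without CON replicate 2 (0.55). With library totals the shares of all genes called higher and lower were 19.3% and 14.1% for macrophage/dendritic-like and 22.6% and 12.4% for T-like nuclei.

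Between the groups, 3 of the 9 genes had no overlap over all nuclei, all higher in SAP, where 3.68% of genes with a UMI were higher and 3.58% lower without overlap. Irf7 was at 3.55, 3.86 and 5.32 CPM in CON and at 7.21, 14.4 and 9.57 CPM in SAP. Isg15 was at 4.41, 4.47 and 9.78 CPM in CON and at 20.9, 12.7 and 45.7 CPM in SAP. Ifit3 was at 0.278, 0.877 and 1.11 CPM in CON and at 4.14, 1.23 and 5.71 CPM in SAP. The exact 2-sided permutation p was 0.1 for each, the smallest that 3 against 3 rats allow. In sums over all nuclei, fewer nuclei of a class and less RNA per nucleus cannot be told apart.

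The other 6 genes overlapped. Samd9 was at 6.33, 13.0 and 29.0 CPM in CON and at 39.1, 26.1 and 44.3 CPM in SAP, and Rsad2 was at 2.15, 0.965 and 4.46 CPM in CON and at 7.21, 3.94 and 12.8 CPM in SAP. Both overlapped only in SAP replicate 2, which lay below CON replicate 3. Between libraries of the same replicate number, whose meaning the labels do not give, Samd9, Rsad2 and Stat2 were higher in SAP in 3 of 3 pairs. The share of all genes higher in 3 of 3 pairs was not counted, so this is no result about these genes. With the number as a block none was called. Stat2 was at 18.2 to 40.0 CPM in CON and 22.3 to 47.1 CPM in SAP, Irf9 at 17.4 to 29.0 and 21.1 to 34.6 CPM, Irf1 at 94.4 to 168.7 and 94.8 to 154.3 CPM, and Mx1 at 3.79 to 8.41 and 1.26 to 13.1 CPM. Over epithelial nuclei the same 3 genes had no overlap, where 4.36% of genes were higher in SAP and 3.68% lower without overlap.

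**Figure D5:**
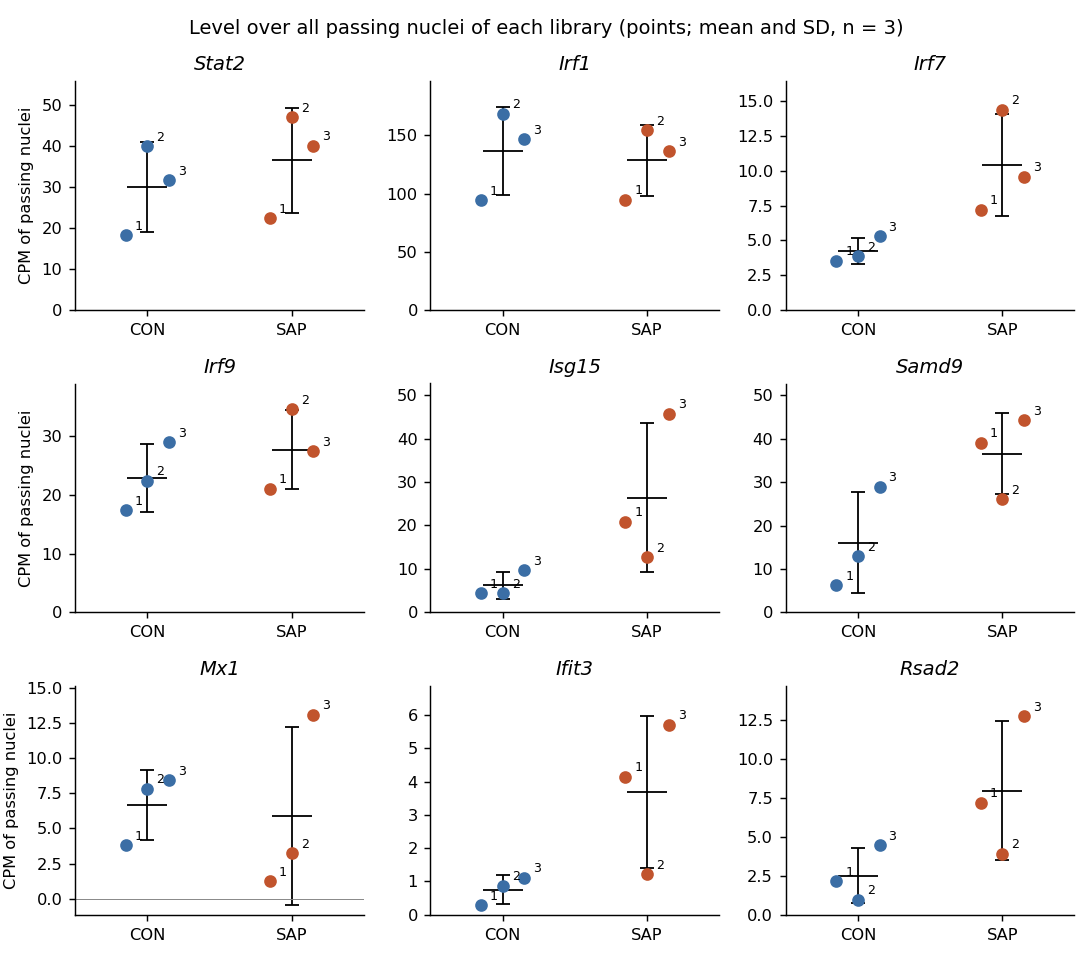
Level of each gene over all passing nuclei in CPM (vertical axis) in 3 CON and 3 SAP libraries, with points numbered by replicate and black marks for the mean and SD. Irf7, Isg15 and Ifit3 are higher in each SAP library than in each CON library, and the other 6 genes overlap.

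None of the 9 genes was called between SAP and CON by edgeR's quasi-likelihood test over all nuclei, where 0% of 19187 genes were called. Before adjustment, 5 of the 9 genes and 8.43% of all genes had a p below 0.05. The log2 fold change was 2.31 ± 0.66 for Ifit3, 2.03 ± 0.43 for Isg15, 1.60 ± 0.57 for Rsad2, 1.33 ± 0.41 for Irf7 and 1.29 ± 0.42 for Samd9, each with an adjusted p of 0.545 by edgeR. It was 0.31 ± 0.35 for Stat2, 0.31 ± 0.30 for Irf9, -0.07 ± 0.27 for Irf1 and -0.30 ± 0.62 for Mx1. DESeq2 called 1 of the 9, Isg15, with an adjusted p of 0.00281, and 1.12% of all genes, and the adjusted p of Isg15 ranged from 0.00281 to 1.00 over the other settings.

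Over epithelial nuclei, edgeR called none of the 9 genes, with 0% of 16829 genes called and with 5 of the 9 and 11.5% of all genes at a p below 0.05 before adjustment. Isg15 was at 2.27 ± 0.55, Rsad2 at 1.83 ± 0.69, Ifit3 at 1.80 ± 0.63, Samd9 at 1.52 ± 0.50 and Irf7 at 1.43 ± 0.39 on the log2 scale. With nuclei limited to 1% mitochondrial UMIs, Samd9 was at 0.67 and Rsad2 at 0.66, and over all nuclei at 0.52 and 0.56. DESeq2 called 2 of the 9, Isg15 and Irf7, with adjusted p of 0.00828 and 0.0372, and 1.85% of all genes. Over the other settings the adjusted p ranged from 0.00828 to 0.924 for Isg15 and from 0.0372 to 0.924 for Irf7.

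The share of villus tip-like nuclei was higher in each SAP library than in each CON library, though not at a stricter mitochondrial limit. In CON libraries it was 2.53%, 3.43% and 4.98%, and in SAP libraries 10.1%, 16.3% and 5.66%, without overlap (exact permutation p = 0.1). At a mitochondrial limit of 1%, tip-like nuclei were 341 of 7924 in CON replicate 3 and 279 of 6825 in SAP replicate 3. That put SAP replicate 3 below CON replicate 3, so the groups then overlapped. When each class was given its mean share over the 6 libraries, a calculation added after the data were seen, the log2 ratio of SAP to CON means went from 2.09 to 1.40 for Isg15, from 2.29 to 1.62 for Ifit3, from 1.66 to 1.19 for Rsad2, from 1.29 to 0.88 for Irf7 and from 1.18 to 0.65 for Samd9. Only Irf7 then had no overlap, at 4.36, 4.46 and 5.69 CPM in CON and 6.16, 10.9 and 9.59 CPM in SAP. The share of all genes without overlap in this calculation was not counted, so this is no result about these genes. Neutrophil-like nuclei were 0.108%, 0.176% and 0.368% in CON and 0.847%, 0.0838% and 0.595% in SAP. They held 31.1% of the UMIs of Ifit3, 6.49% of Isg15, 1.76% of Rsad2, 1.57% of Irf7 and 0.922% of Samd9. Their part in the differences of these genes was not tested.

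At the villus tip itself, 7 of the 9 genes were tested between SAP and CON and none was called, where 0.0113% of 8814 genes were. Before adjustment, edgeR's p was below 0.05 for 2 of the 7, Irf7 at 1.37 ± 0.52 and Isg15 at 1.71 ± 0.70 on the log2 scale, and for 10.7% of all genes, and DESeq2 called none of the 7 and 0.34% of all genes. Rsad2 was at 1.44 ± 0.89, Samd9 at 1.15 ± 0.60, Irf9 at 0.79 ± 0.38, Stat2 at 0.45 ± 0.40 and Irf1 at -0.14 ± 0.29. Irf7 alone had no overlap there, where 2.59% of genes were higher in SAP and 7.52% lower without overlap. The values were smaller without SAP replicate 3, where Isg15 was at 0.47, Samd9 at 0.60 and Rsad2 at 0.29. A mitochondrial limit of 1% kept 384 of 3189 nuclei in SAP replicate 1 and 1908 of 5968 in SAP replicate 2. This limit gave 0.54 for Isg15, 0.25 for Samd9, -0.15 for Rsad2 and 0.80 for Irf7. At that limit 0 of the 9 genes had no overlap, and the share of all genes without overlap was not counted. The summed level of 9 neutrophil markers at the tip, with Cxcr2 at 0, was 5.93 to 8.88 CPM in CON and 9.71 to 146 CPM in SAP, and its part in these values was not tested.

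Within the 18 classes, 57 gene tests were made between SAP and CON and edgeR called none, where 0.00882% of all gene tests in these classes were called. Before adjustment, 6 of the 57 and 8.12% of all gene tests had a p below 0.05, and DESeq2 called none of the 57 and 0.517% of all. Those 6 were Irf7 and Isg15 at the tip, Irf7 at 1.91 ± 0.60 and Isg15 at 1.90 ± 0.54 in goblet-like nuclei, Isg15 at 1.27 ± 0.55 in mid villus-like nuclei and Irf1 at -0.92 ± 0.41 in Paneth-like nuclei. In goblet-like nuclei Isg15 was at 2.09, 1.83 and 5.64 CPM in CON and at 12.2, 9.52 and 14.0 CPM in SAP. Irf7, Isg15 and Rsad2 had no overlap there, where 3.41% of genes were higher in SAP and 5.44% lower without overlap. These levels rest on few UMIs, since 42, 50 and 22 of 4237 goblet-like nuclei had a UMI of Irf7, Isg15 and Rsad2. The part of free RNA in them was not tested. Over the 18 classes, 14 of 162 pairs of a gene and a class were higher in SAP without overlap and 2 were lower, where 3.28% and 4.65% of all pairs were. The 2 lower ones were Irf1 in T-like and Rsad2 in enteroendocrine-like nuclei.

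Whether SAP acted differently on villus and crypt was tested as an interaction. Enterocyte-like nuclei pool the tip and the mid villus. Of them, 234 of 1505, 215 of 1212 and 419 of 1524 were tip-like in CON libraries. In SAP libraries 323 of 1052, 975 of 2631 and 447 of 1270 were. In this pool a shift between layers and a change within a layer cannot be told apart. For enterocyte-like against stem/TA-like nuclei, 8 of the 9 genes were tested and edgeR called none, where 0% of 14699 genes were called. Before adjustment, p was below 0.05 for 1 of the 8, Irf7 with a difference of 1.62 ± 0.71 on the log2 scale, and for 5.16% of all genes, and DESeq2 called none of the 8 and 0.034% of all genes. For villus tip-like against stem/TA-like nuclei, added after the data were seen, edgeR and DESeq2 called none of the 9 and 0% of all genes. None of the 9 and 5.33% of all genes had a p below 0.05 before adjustment, and the difference was 0.20 ± 0.83 for Isg15 and 1.85 ± 0.89 for Irf7. Irf7 had 26 UMIs in stem/TA-like nuclei and was too low to be tested between SAP and CON in that class alone.

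Other genes of the pathway were described from a list of 135, of which 125 were in the tables. At the tip against stem/TA-like nuclei, 64 of 101 tested were called higher and 5 lower, with a median log2 fold change of 0.88 beside -0.03 for all genes, of which 28.7% were called higher and 26.7% lower. With library totals, under which 15.7% of all genes were called higher and 50.3% lower, 43 of the 101 genes were called higher and 14 lower. Among other interferon-stimulated genes 42 of 57 were called higher and 3 lower, and with library totals 30 and 6. Parp14, an ADP-ribosyltransferase, was at 2.70 ± 0.22 and Plac8 at 2.14 ± 0.25, whereas Lgals9 at -0.17 ± 0.14 was not called. Among nucleic acid sensors and adaptors 7 of 9 were called higher and 1 lower (with library totals 6 and 2), with Ifih1, which encodes the double-stranded RNA sensor MDA5, at 2.32 ± 0.24 and its adaptor gene Mavs at 0.83 ± 0.19. Tlr3, an endosomal sensor of double-stranded RNA, was at -0.39 ± 0.18 and was not called.

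At the tip against stem/TA-like nuclei, 5 of 9 receptors and kinases were called higher and none lower, and with library totals 3 and none. Of all genes, 28.7% were called higher and 26.7% lower, and with library totals 15.7% and 50.3%. Jak1, the kinase that all interferon receptors use, was at 0.70 ± 0.13 and was called, whereas Ifngr1 at 0.44 ± 0.13 and Ifnar2 at 0.19 ± 0.14, subunits of the interferon gamma and type I receptors, were not. Among other STAT and IRF factors 2 of 7 were called higher and none lower (with library totals 1 and 2). Stat3 at 1.41 ± 0.18 was called, whereas Irf3 at 0.44 ± 0.13 and Irf8 at 0.41 ± 0.15 were not. Among interferon gamma targets 5 of 11 were called higher and none lower (with library totals 1 and 1). The immunoproteasome gene Psmb8 at 0.83 ± 0.18 was called. Psmb9 at 0.11 ± 0.15 and the peptide transporter gene Tap1 at 0.49 ± 0.16 were not called. Among negative regulators 3 of 7 were called higher and 1 lower (with library totals 2 and 2). The phosphatase gene Ptpn6 was at 1.88 ± 0.25, called higher, and Ptpn2 at -0.65 ± 0.14, called lower. Pias1 at 0.12 ± 0.15 was not called.

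Against the mid villus, 33 of 105 pathway genes were called higher and 8 lower, with a median of 0.30 beside 0.01 for all genes, of which 13.4% were called higher and 8.82% lower. With library totals, under which 9.09% of all genes were called higher and 17.4% lower, 23 of the 105 were called higher and 12 lower. Tlr3 at -1.11 ± 0.17 and Ifngr1 at -0.65 ± 0.13 were called lower. Ifih1 at 1.39 ± 0.17, Parp14 at 0.84 ± 0.12 and Ptpn6 at 0.89 ± 0.16 were called higher. The other pathway genes named for the crypt comparison were not called here. Below 0 were Lgals9 at -0.44, Ifnar2 at -0.43, Psmb9 at -0.38, Irf8 at -0.33, Ptpn2 at -0.10 and Irf3 at -0.06. Above 0 were Stat3 at 0.44, Mavs at 0.42, Jak1 at 0.28, Plac8 at 0.19, Psmb8 and Pias1 at 0.06 and Tap1 at 0.01. Between SAP and CON over all nuclei, edgeR and DESeq2 called none of 115 tested pathway genes. Over epithelial nuclei edgeR called none of 111, and DESeq2 called 2, Ifitm3 and Irgm2, which are named after their values were seen, where it called 1.85% of all genes. Over all nuclei and before adjustment, 10 of the 115 were higher and 8 lower at a p below 0.05 by edgeR, where 8.43% of all genes had such a p. The median was 0.15 beside 0.02 for all genes, of which 52.2% were above 0. Of 62 other interferon-stimulated genes 41 were above 0, with a median of 0.15, and of 18 interferon gamma targets 7 were above 0, with a median of -0.17.

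Of 10 listed interferon genes 6 were in the tables, and 5 of these had at most 18 of the 100387909 UMIs. Ifnb1 had 0 UMIs, which allows up to 3 in that total, Ifna4 had 1, Ifnl1 and Ifnl3 had 2 each and Ifng had 18. Ifnk, a type I interferon first found in keratinocytes, had 1891 UMIs, with 571, 475 and 218 in CON and 114, 308 and 205 in SAP. Between SAP and CON over all nuclei Ifnk was at -0.48 ± 0.59 (log2). At the tip it was at -0.46 ± 0.32 against stem/TA-like and at -0.22 ± 0.21 against mid villus-like nuclei, called in neither.

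The 10 genes whose pattern over the 18 classes was most like the mean pattern of the 9 genes, among 18253 genes, were Sectm1b, Abtb2, Cib1, F11r, Lpin2, Ceacam18, Stk25, Slfn1, Slc3a1 and Sbf1, with Pearson r from 0.958 to 0.920 over class means of log2(CPM + 1). None is in the pathway lists. Sectm1b was at 437 CPM at the tip, 99.0 CPM in mid villus-like and 29.4 CPM in stem/TA-like nuclei, and Slfn1 at 133, 16.7 and 5.08 CPM. Among the 9 genes, Samd9 (r = 0.938) and Isg15 (r = 0.919) were closest to their mean pattern and Irf9 (r = 0.405) farthest. Each of the 9 is part of that mean, so its r cannot be set beside those of the 10 genes. The class means share the same libraries, so r is a description.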

How the data were processed

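The deposited tables hold UMI counts per gene and barcode for 6 libraries, which the authors made with dnbc4tools from droplet libraries of nuclei (DNBelab C series). The submitters' processing notes name Seurat 4.3.0 and the genome build mRatBN7.2. How reads from near-identical genes were counted is not given in the sources used here.

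Nuclei were kept at 1200 UMIs, 500 genes and at most 5% mitochondrial UMIs, the limits in the study's methods. They were clustered with scanpy 1.11.5 and leidenalg 0.10.2 (2000 variable genes, 30 components, Harmony integration, resolution 0.8), without the 9 genes and the pathway genes, and named by marker lists, since no annotation of the nuclei was used. No doublets were removed in the main analysis. Barcode names are serial numbers, and 20692 of 63618 occur in more than one library, so shared names do not mark shared nuclei.

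Counts were summed per library and class, with at least 10 nuclei in each library. Levels are CPM of those sums. Differences were tested by edgeR 4.0.16 in R 4.3.3, with quasi-likelihood tests, TMM scaling, the filter on low counts of edgeR and Benjamini-Hochberg adjustment over all genes tested, and the rat as a block between classes. Single values were compared by exact permutation tests (scipy 1.17.1). Libraries are 1 per rat. The fits were tested on simulated data.

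The 9 genes are named in every fit. Other pathway genes are named where called by edgeR between SAP and CON over all or all epithelial nuclei, and otherwise as the 3 of each list with the highest mean level. The 10 genes of likest pattern were ranked by Pearson r among genes at 5 CPM or more in a class. The members and lists were chosen with earlier results of these data known.

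The alternatives were DESeq2 1.42.0, its size factors, no filter beyond 1 count, the replicate number as a block, a covariate for the libraries that list barcodes under 1000 UMIs, a mitochondrial limit of 1%, removal of the 2048 nuclei with the highest doublet scores, resolution 0.4 and leaving out each library. Library totals, mean class shares in every library, tip against mid villus and its interaction with the crypt were added after the data were seen. Replicate numbers are shared between the groups, and the labels do not say what they stand for. Deviations of same-numbered libraries from their group means correlated at 0.577, 0.183 and 0.524 over all nuclei and at 0.578, 0.0559 and 0.406 over epithelial nuclei.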

Additional observations from a re-analysis of the deposited data

How the results depend on the processing

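With the replicate number as a block, 0 of the 9 genes were called between SAP and CON over all nuclei, over epithelial nuclei and within classes, as without it. A count of 0 cannot fall, so this does not show whether the pairing mattered. Of 110 recomputed counts of calls, 105 stayed within the limit of 1.5 times. The counts between SAP and CON and for the interactions were 0 in the main fits, so this tally is no measure of stability. DESeq2 called 2 genes over epithelial nuclei and 1 over all nuclei. With every gene of at least 1 count, 1 call was made within classes, Isg15 at the villus tip. Its adjusted p by edgeR was 0.0120 there and ranged from 0.0120 to 0.960 over the settings. In macrophage/dendritic-like against stem/TA-like nuclei 2 genes were called with every gene kept, where leaving out each library gave 2 to 4. The shares of all genes called with every gene kept or without a library were not counted.

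Of 713 other recomputed values, 668 kept their direction and side of the threshold, 16 lost a call or fell by over 1.5 times as a count, 5 moved the other way and 24 changed sign. Leaving out each library gave log2 fold changes between SAP and CON of -0.024 to 0.55 for Stat2, -0.31 to 0.084 for Irf1 and -1.29 to 0.13 for Mx1 over all nuclei, of -0.016 to 0.59, -0.20 to 0.17 and -0.98 to 0.12 over epithelial nuclei and of -0.40 to 0.014 for Irf1 at the tip. For Irf9 it gave -0.094 to 0.18 in macrophage/dendritic-like and -0.11 to 0.0035 in T-like against stem/TA-like nuclei, and -0.011 to 0.18 for the tip against the mid villus. Irf1 over epithelial nuclei, at 0.00090, was at -0.033 with the block, -0.017 with the depth covariate, -0.023 with library totals, -0.069 at the 1% mitochondrial limit and -0.0034 without marked doublets. Rsad2 at the tip was at -0.15 at the 1% limit. Irf9 was at -0.14 with every gene and at -0.019 without marked doublets in macrophage/dendritic-like nuclei, and at -0.12 with library totals for the tip against the mid villus. The cause of these changes was not tested.

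In data simulated for SAP against CON, genes changed by a log2 of 1 were called in 0% of cases over all nuclei (19187 genes). At the tip (8814 genes) they were called in 4%. Genes changed by a log2 of 2 were called in 27% and 65%. Over all nuclei Rsad2 was at 1.60, Irf7 at 1.33 and Samd9 at 1.29, between these sizes. Ifit3 at 2.31 and Isg15 at 2.03 were above both. How often differences of such sizes are called at the level and spread of these genes was not tested.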
